A study of Homo sapiens with 84 samples.

Results

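SUDHL2 is an established human large B-cell lymphoma line. It is commonly classed as activated B-cell-like. It is known for a mutation in MYD88 and loss of TNFAIP3, both of which feed the NF-kB pathway. The labels state neither the class nor the mutations and call the cells lymphoma grown in vitro. The SUDHL2 arrays were chosen by the cell line named in the labels and make up 15 of the 84 Illumina bead arrays of the series, which covers 8 lymphoma lines. They hold PQR309, idelalisib, duvelisib, ibrutinib and the solvent DMSO, each at 4, 8 and 12 h, so that there are 3 arrays a treatment. RIVA, TMD8 and U2932 were given the same 5 treatments at the same times and are the lines SUDHL2 is set against here. The labels give no dose for any inhibitor, and nothing in them says that the arrays came from separate cultures. The 3 times stand in for replicates of a treatment. For 12 h against 4 h the 5 treatments do so instead. In the main fits p-values measure the spread left after treatment and time are taken out, pooled over the treatments in the fit. Where 4 lines were fitted together, this spread was pooled over the lines.

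PI3K turns a signal at the cell surface into active AKT. AKT drives mTOR, which supports ribosome production and protein synthesis, and keeps FOXO transcription factors out of the nucleus. BTK acts beside PI3K below the B-cell receptor and passes the signal to NF-kB, whose targets in B cells include TNF, lymphotoxin and chemokines. The series title names PQR309 an inhibitor of PI3K and mTOR. Idelalisib inhibits PI3K delta, duvelisib inhibits PI3K delta and gamma, and ibrutinib inhibits BTK.

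The 2 deposited tables do not hold the same SUDHL2 arrays. The rank correlation across probes between an array in the raw and in the normalized table was 1 for each idelalisib, duvelisib and ibrutinib array, but between 0.816 and 0.887 for the PQR309 and DMSO arrays. PQR309 was therefore compared with DMSO in both tables, with 6 arrays in the normalized one. Whether both sets came from the same RNA is not stated. Whether the idelalisib, duvelisib and ibrutinib arrays were run apart from those of PQR309 and DMSO was not tested. A difference between such runs would enter every comparison across them.

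The raw DMSO array at 8 h stood apart from the others. Its 99th percentile of raw intensity was 1332, that of the PQR309 array at 8 h was 2435, and the other 13 arrays lay between 3612 and 7513. The mean rank correlation of the DMSO array at 8 h with the other 14 was 0.821, whereas pairs among those 14 lay between 0.841 and 0.920. Every inhibitor was farther from DMSO at 8 h than at the other times. With idelalisib the SD of the log2 difference over all genes was 0.249 at 4 h, 0.633 at 8 h and 0.199 at 12 h, and 46, 1391 and 2 genes differed by at least 2-fold at these times. The SD with PQR309 was 0.200 at 4 h, 0.333 at 8 h and 0.187 at 12 h. Results that rest on DMSO are given with and without that array.

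**Figure D1:**
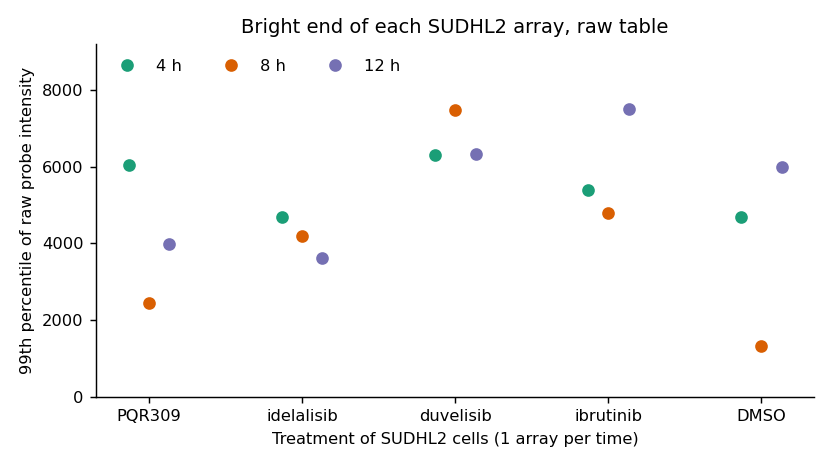
Brightness of the 15 SUDHL2 arrays of the raw table: the 99th percentile of raw intensity (vertical axis, arbitrary units) for each treatment at 4, 8 and 12 h (points). The DMSO array at 8 h is lowest at 1332, followed by the PQR309 array at 8 h at 2435, and the others lie between 3612 and 7513.

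Cell type markers were read in the DMSO arrays, on log2 intensity normalized over the 60 raw arrays of the 4 lines. Detection p-values were at hand in 3 columns labelled as arrays of OCILY1, a line not compared here. In them 39% to 40.2% of probes were detected. The log2 intensity that this proportion of probes exceeded on average, 6.28, was used as a detection level, which is approximate for SUDHL2. Of the B-lineage markers 12 of 14 lay above it, among them MS4A1 (CD20) at 9.75 ± 0.11 and CD79A, a signalling chain of the B-cell receptor, at 10.6 ± 0.7 (SD, n = 3). PAX5, a defining B-lineage factor, lay under it at 5.97 ± 0.08 (SD, n = 3) in SUDHL2, and also at 5.90 in RIVA, 5.95 in TMD8 and 5.87 in U2932. BLNK, an adaptor of the B-cell receptor, lay under it in SUDHL2 at 6.17, against 7.05 in RIVA, 7.45 in TMD8 and 6.79 in U2932. Markers of the activated class lay above it in 13 of 17 cases, against 16 in RIVA, 16 in TMD8 and 14 in U2932. Germinal-centre markers did so in 9 of 14 cases, against 11, 9 and 12 in the same order. The B-lineage count of 12 stood against 13, 12 and 13, so the counts do not identify the line. T-cell markers were above it in 1 of 11 cases (LCK at 6.59). Myeloid markers were above it in 4 of 9 cases, with CD68 at 9.19 and the defining marker CSF1R under it, and stromal markers in 1 of 9 (ACTA2 at 8.07). The mean log2 level of the T-cell markers lay between 5.96 and 6.08 on every array, between 6.36 and 6.57 for the myeloid markers and between 6.06 and 6.24 for the stromal markers. In these bulk cultures fewer cells of a kind and less RNA per cell cannot be told apart.

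The first question was whether PQR309 changed expression in SUDHL2. No gene of 12391 passed an adjusted p of 0.05 in the raw table (limma, PQR309 minus DMSO with time as a block, Benjamini-Hochberg), which is 0% of the genes tested, and 897 had an unadjusted p under 0.05. The normalized table gave 0 of 12150, with 889 at an unadjusted p under 0.05. Leaving out the DMSO array at 8 h gave 0 genes and 1153 at an unadjusted p under 0.05. Under each other setting run on the SUDHL2 arrays alone the count was 0, with 25 to 1253 genes at an unadjusted p under 0.05 in the raw table, 213 to 1516 in the normalized table, and 1731 for the mean of both tables. A joint fit with 3 other lines, given further on, called 4 genes. The smallest adjusted p was 0.229 in the raw and 0.652 in the normalized table. Genes coding for targets of the inhibitors were among those bright enough to be tested, and did not pass. PIK3CD, the delta catalytic subunit, differed by -0.08 on the log2 scale with PQR309, PIK3CG, the gamma subunit, by 0.42, MTOR by 0.07 and BTK by -0.13.

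IFRD1, a transcriptional co-regulator of the stress response, was among the genes with the smallest adjusted p. Its log2 intensity was 8.55, 9.03 and 8.82 at 4, 8 and 12 h with PQR309, against 9.28, 9.70 and 9.52 with DMSO in the raw table. The normalized table held other arrays and gave 8.75, 8.63 and 8.73 with PQR309 against 9.37, 8.97 and 9.20 with DMSO. In both tables each PQR309 array lay below every DMSO array. IFRD1 was picked for its small p-value, so this separation follows in part from the choice. The difference was -0.70 ± 0.12 (SE, adjusted p = 0.229) in the raw and -0.48 ± 0.09 (SE, adjusted p = 0.652) in the normalized table. RBM14, an RNA-binding coactivator, differed by -0.67 and NIP7, a ribosome assembly factor, by -0.61 in the raw table. NIP7 differed by -0.06 in the normalized one.

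Among the genes on the higher side, ISG20, an interferon-induced exonuclease, had log2 intensities of 9.70, 9.80 and 9.61 at 4, 8 and 12 h with PQR309, against 9.43, 9.20 and 8.87 with DMSO. The normalized table gave 9.70, 10.17 and 9.63 with PQR309 against 9.50, 9.46 and 9.13 with DMSO. The differences were 0.54 and 0.47, and the 2 groups did not overlap in either table. ISG20 did not pass in either table and was picked for its small p-value, so this separation too follows in part from the choice. CCR7, a chemokine receptor counted among FOXO targets, had 8.81, 9.06 and 8.52 with PQR309 and 8.19, 8.60 and 8.17 with DMSO, a difference of 0.47 ± 0.10 (SE), and 0.46 in the normalized table. CCR7 was higher with PQR309 at each of the 3 times in both tables, although its groups overlapped in the raw one. RMI2, a subunit of the complex that dissolves crossed DNA strands, behaved likewise, with 0.54 in the raw and 0.40 in the normalized table. MXD3, a partner of MAX that competes with MYC, had the largest difference of the genes named here in the raw table, at 0.90 ± 0.15 (SE, adjusted p = 0.229), with 7.71, 7.45 and 7.33 against 6.92, 6.14 and 6.75 in DMSO. Its difference in the normalized table was 0.21.

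Gene lists gave no calls with PQR309 either, but several medians kept their side of 0. Of all genes 16.1% were above 0 at all 3 times and 14.4% below 0 at all 3 times in the raw table (15.6% and 13.2% in the normalized table), which is the background for the counts that follow. The median log2 difference over all genes was -0.002 in the raw and 0.002 in the normalized table. Of 41 measured genes of ribosome biogenesis, 22 were below 0 at all 3 times, with a median of -0.22, and 11 of 41, with a median of -0.07, in the normalized table. Heat-shock genes, which code for chaperones, were below 0 at all times in 14 of 24 cases with a median of -0.20, and in 7 of 24 with a median of -0.20 in the normalized table. Genes of G2 and mitosis were above 0 at all times in 22 of 46 cases with a median of 0.14, and in 17 of 46 with 0.06 in the normalized table. FOXO targets were above 0 at all times in 12 of 32 cases (median 0.08) and in 12 of 28 (median 0.12). The raw medians without the DMSO array at 8 h were -0.29 for ribosome biogenesis, -0.20 for heat-shock genes, 0.11 for G2 and mitosis and 0.13 for FOXO targets. These counts describe the lists, which were chosen with earlier results of these data known, and no list was tested as a set.

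Within these lists the members differed in size. Of the FOXO targets, KLHL24, an ubiquitin ligase adaptor, differed by 0.68 in the raw and 0.21 in the normalized table, and YPEL3 by 0.62 and 0.17. The ribosome biogenesis median was -0.31 at 4 h, -0.24 at 8 h and -0.15 at 12 h in the raw table, and -0.11, -0.09 and -0.03 in the normalized table. The TNF, lymphotoxin and chemokine list had medians of -0.08 and 0.04 in the 2 tables, and the NF-kB targets 0.04 and 0.06, so neither list stood clearly on 1 side. B-cell receptor genes had medians of 0.05 and 0.04. Sterol synthesis genes, targets of SREBP, had medians of -0.03 and -0.01, and ATF4 targets -0.09 and -0.03. Members of the activated class had medians of 0.20 and 0.19, with 9 of 15 and 6 of 16 above 0 at all times.

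**Figure D2:**
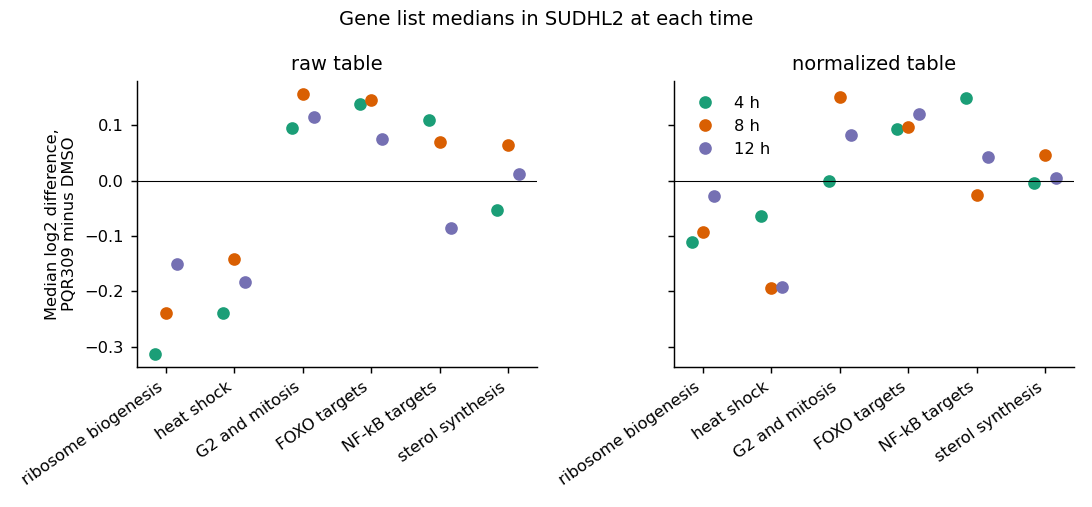
Median log2 difference between PQR309 and DMSO in SUDHL2 (vertical axis) for 6 gene lists, at 4, 8 and 12 h (points), in the raw table (left) and the normalized table (right). Ribosome biogenesis lies below 0 at every time in both tables, and at every time it is nearer to 0 in the normalized one.

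With ibrutinib 3 genes fell and none rose at an adjusted p of 0.05, which is 0.0242% of 12391 genes, and 2366 had an unadjusted p under 0.05. The 3 were RGS20, TPRG1 and IRAG2. RGS20, which shortens signalling by G proteins, had log2 intensities of 7.27, 6.68 and 6.82 at 4, 8 and 12 h with ibrutinib, against 8.49, 7.83 and 8.34 with DMSO. Every ibrutinib array lay below every DMSO array. The difference was -1.30 ± 0.10 (SE, 95% interval -1.52 to -1.07, adjusted p = 1.52e-04), and without the DMSO array at 8 h it was -1.46 (adjusted p = 8.47e-06). TPRG1, a gene named for its place beside TP63, had 6.97, 6.55 and 6.84 with ibrutinib against 7.79, 7.79 and 7.61 with DMSO. Its groups were separate too, and it fell by 0.94 ± 0.10 (SE, adjusted p = 0.00266), or by 0.89 (adjusted p = 0.00296) without that array. With the arrays scaled to a common median in place of quantiles, RGS20 was lower by a difference of -0.84 and TPRG1 by -0.48, both at an adjusted p of 0.254.

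IRAG2, also known as LRMP, is an endoplasmic reticulum membrane protein and a germinal-centre marker. Its log2 intensity was 9.90, 9.55 and 9.60 at 4, 8 and 12 h with ibrutinib, 9.86, 9.44 and 9.51 with duvelisib, 9.78, 9.45 and 9.38 with idelalisib, 10.50, 9.67 and 9.87 with PQR309 and 10.73, 10.14 and 10.25 with DMSO. The ibrutinib, duvelisib and idelalisib arrays all lay below the lowest DMSO array, and those of PQR309 overlapped with DMSO. The ibrutinib, duvelisib and idelalisib arrays were compared with the same DMSO arrays. Their shared fall was not separated from a possible difference between sets of arrays, which was not tested. The difference from DMSO was -0.69 (adjusted p = 0.0473) with ibrutinib, -0.77 ± 0.10 (SE, adjusted p = 0.0441) with duvelisib and -0.84 (adjusted p = 0.00858) with idelalisib. With PQR309 it was -0.36 (adjusted p = 0.443), and -0.45 in the normalized table. Without the DMSO array at 8 h the differences were -0.72 (adjusted p = 0.0578) with ibrutinib and -0.80 (adjusted p = 0.0528) with duvelisib, so that both calls were lost by a small margin. Median scaling turned the direction, to 0.063 with ibrutinib and 0.21 with duvelisib, and moved the median of all genes by 0.4 and 0.528.

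IRAG2 was the 1 gene that passed with duvelisib, 0.00807% of 12391 genes, with 2315 at an unadjusted p under 0.05. Without the DMSO array at 8 h no gene passed with duvelisib (1502 at an unadjusted p under 0.05), and 2 passed with ibrutinib, RGS20 and TPRG1. RGS20 and TPRG1 did not pass with duvelisib. RGS20 had 8.05, 7.60 and 7.58 with duvelisib, a difference from DMSO of -0.48 (adjusted p = 0.160), and TPRG1 7.60, 7.25 and 7.40, a difference of -0.31. Genes nearest to the threshold on the higher side were IDI1, an enzyme of sterol synthesis, at 0.69 with duvelisib and 0.72 with ibrutinib, HIF1A, the oxygen-regulated transcription factor, at 0.72 with ibrutinib, and ZWILCH, a kinetochore protein, at 0.69 with duvelisib. On the lower side IRF3, which drives interferon genes, was at -0.51 with duvelisib and CYTH1, an activator of ARF GTPases, at -0.57 with ibrutinib. None of these passed.

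**Figure D3:**
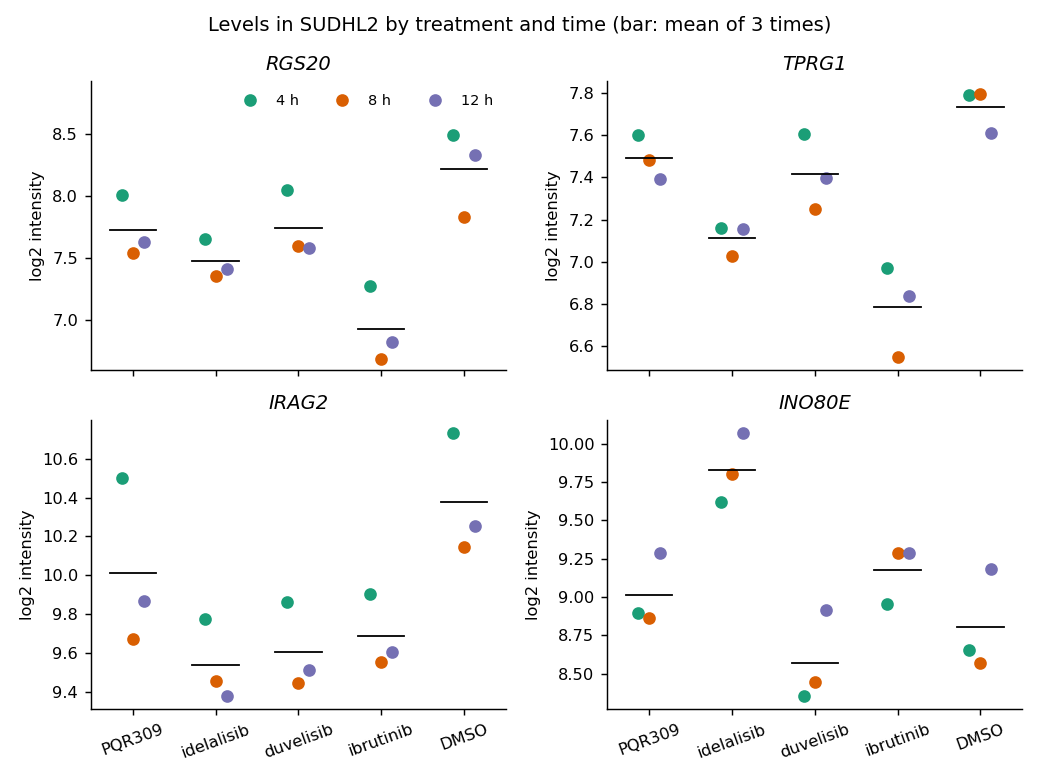
Log2 intensity (vertical axis) of RGS20, TPRG1, IRAG2 and INO80E in each SUDHL2 array of the raw table, by treatment (horizontal axis) and time (points). RGS20 is lowest with ibrutinib at 6.68 to 7.27, and INO80E highest with idelalisib at 9.62 to 10.07.

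Idelalisib gave the most calls of the 4 inhibitors in the raw table, with 144 genes higher (1.16%) and 157 lower (1.27%), together 2.43% of 12391 genes. Without the dim DMSO array at 8 h 25 were higher and 22 lower, 46 of them among the 301. Without the PQR309 array at 8 h as well, 155 were higher and 214 lower, 246 of them among the 301. No call remained for any inhibitor against DMSO when the arrays at 4 h or those at 12 h were left out. INO80E, a subunit of a chromatin remodelling complex, rose. It had log2 intensities of 9.62, 9.80 and 10.07 at 4, 8 and 12 h with idelalisib, against 8.66, 8.57 and 9.18 with DMSO. All 3 idelalisib arrays were above every DMSO array, with a difference of 1.03 ± 0.11 (SE, adjusted p = 0.00409), and 0.94 (adjusted p = 0.00333) without the 8 h DMSO array. PLD6, a mitochondrial phospholipase, had 7.52, 8.63 and 8.45 with idelalisib against 8.60, 10.16 and 9.13 with DMSO. It was lower at each time although the groups overlapped by 1 array, and fell by 1.10 ± 0.14 (SE, adjusted p = 0.00885), or by 1.03 without the 8 h DMSO array.

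The largest rises with idelalisib were those of DDX59, an RNA helicase (1.22), LOC407835, a pseudogene (1.11), DCAF15, an adaptor of a ubiquitin ligase (1.05), INO80E, MAP2K2, the kinase MEK2 (1.01), GPAA1, which attaches GPI anchors (1.0), YWHAE, a 14-3-3 protein (0.96), RBM42 (0.96), BSG, a partner of lactate transporters (0.94), and PKMYT1, an inhibitory kinase of CDK1 (0.93). The largest falls were those of GRAMD1A, a cholesterol transporter (-1.19), SLC25A22, a mitochondrial glutamate carrier (-1.16), PLD6, ANKLE1 (-0.97), MED16, a Mediator subunit (-0.96), NPRL3, a brake on mTORC1 (-0.94), SAFB (-0.90), GJB2, a connexin (-0.86), CDT1, which licenses replication origins (-0.85), and ASCC2 (-0.85). Without the DMSO array at 8 h, DDX59, LOC407835, DCAF15, INO80E, GPAA1, PLD6, SAFB and GJB2 still passed, and the other 12 of these 20 had adjusted p-values between 0.0659 and 0.118. GJB2 had 6.61, 6.58 and 6.55 with idelalisib against 7.42, 7.62 and 7.27 with DMSO, with no overlap.

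RGS20 and TPRG1 fell with idelalisib as well. RGS20 had 7.65, 7.35 and 7.41 with idelalisib and differed from DMSO by -0.75 (adjusted p = 0.00885), and TPRG1 had 7.16, 7.03 and 7.16 and differed by -0.62 (adjusted p = 0.0217). Both passed without the DMSO array at 8 h as well, at -0.88 and -0.55. Among the lists, 3 of 15 histone genes rose with idelalisib (1.16% of all genes) and none fell, H2AC18 by 0.78, H2BC21 by 0.77 and H2BC8 by 0.50, with a list median of 0.29 against -0.01 over all genes. Of 41 ribosome biogenesis genes 3 fell (1.27% of all genes), RRS1 by 0.65, FBL by 0.54 and UTP4 by 0.40, and the list median was -0.14. FADS2, a fatty acid desaturase, rose by 0.82, and PSAT1, an enzyme of serine synthesis, fell by 0.62. Of the 2 germinal-centre markers that fell, LMO2, a transcriptional adaptor, fell by 0.62 and IRAG2 by 0.84. JCHAIN, which joins secreted antibodies, fell by 0.66, TRAF1, an NF-kB target, by 0.63, IL21R by 0.57 and BATF, a transcription factor of the activated class, by 0.49. BCL3, an NF-kB co-regulator, rose by 0.67 ± 0.09 (SE, adjusted p = 0.00885). Without the DMSO array at 8 h, H2AC18, H2BC8, RRS1, IRAG2, JCHAIN and BCL3 passed, and the other 9 of these list members had adjusted p-values between 0.0694 and 0.121.

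The 6 pairs of inhibitors were also compared, in which the dim DMSO array enters through the normalization and the shared spread. Doses are not given, so the values stand side by side at matched times only, and p-values were adjusted over all genes within each pair. Duvelisib and idelalisib differed in 502 genes (4.05%), of which 143 were higher (1.15%) and 359 lower (2.90%) with duvelisib. PQR309 and duvelisib differed in 325 genes (2.62%), of which 163 were higher (1.32%) and 162 lower (1.31%) with PQR309. PQR309 and idelalisib differed in 45 (0.363%), with 39 higher (0.315%) and 6 lower (0.0484%) with PQR309, and PQR309 and ibrutinib in 41 (0.331%), with 25 higher (0.202%) and 16 lower (0.129%). Ibrutinib differed from duvelisib in 1 gene (0.00807%), RGS20, at -0.82 ± 0.10 (SE, adjusted p = 0.0317), and from idelalisib in 0 (0%), with 1086 at an unadjusted p under 0.05. Without the DMSO array at 8 h these pairs gave 1548, 1514, 1142, 844, 2 and 52 genes in the order given.

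**Figure D4:**
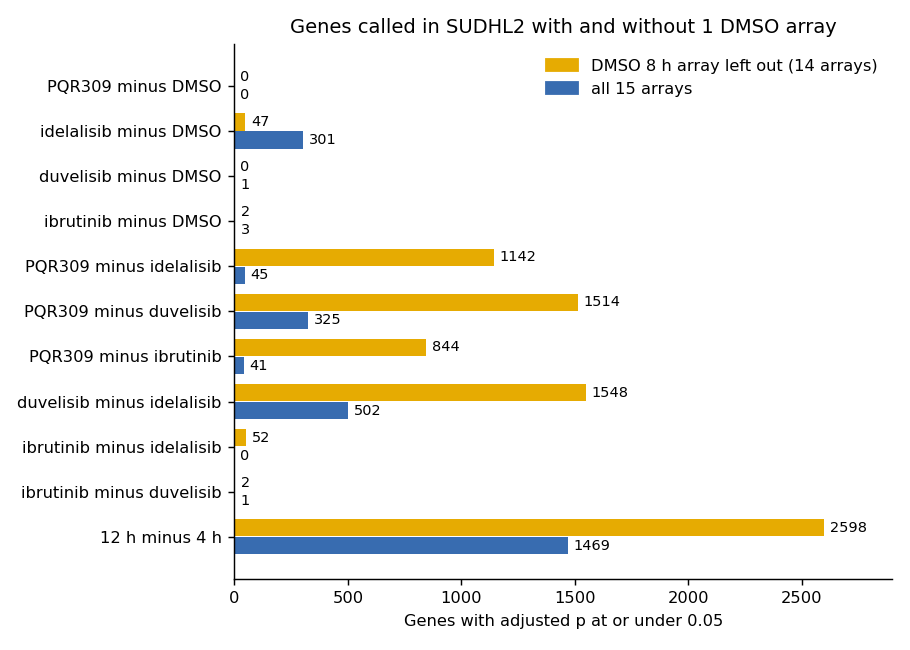
Genes past an adjusted p of 0.05 in SUDHL2 (raw table), both directions together, for each inhibitor against DMSO, each pair of inhibitors and 12 h against 4 h (bars), without the DMSO array at 8 h and with all 15 arrays. With idelalisib minus DMSO the count is 47 without that array and 301 with all arrays, and PQR309 minus DMSO is 0 in both.

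Idelalisib and duvelisib both carry a purine group, on a quinazolinone core in idelalisib and on an isoquinolinone core in duvelisib. HSPA4, a chaperone of the HSP110 family, had log2 intensities of 8.82, 8.63 and 8.76 at 4, 8 and 12 h with duvelisib, against 8.11, 7.68 and 7.94 with idelalisib. The groups did not overlap, with duvelisib higher by 0.82 ± 0.10 (SE, adjusted p = 0.00129). The DMSO arrays had 8.14, 8.11 and 8.31, above idelalisib and below duvelisib at each time. INO80E showed the opposite order, with 8.35, 8.44 and 8.92 for duvelisib against the values for idelalisib above, and a difference of -1.26 ± 0.11 (SE, adjusted p = 3.82e-04). BSG had 8.17, 9.19 and 9.42 with duvelisib against 9.95, 10.63 and 10.61 with idelalisib, a difference of -1.47 (adjusted p = 0.00376).

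Other genes higher with duvelisib than with idelalisib were TCP1, a chaperonin subunit (0.88), SBDS, a ribosome maturation factor (0.84), PHF23 (0.82) and EXOSC8, a subunit of the RNA exosome (0.82). Those lower were NPIPB5 (-1.52), MAP2K2 (-1.23) and YWHAE (-1.21); NPIPB5 belongs to a family of near-identical copies, so its probe may not be specific. The normalized table holds the same arrays for these 2 inhibitors and gave 0.86 for TCP1, 0.77 for SBDS, 0.75 for HSPA4 and -1.17 for INO80E. Of 24 heat-shock genes 4 were higher with duvelisib (1.15% of all genes) and none lower (2.90%), namely TCP1, HSPA4, PTGES3 (0.65) and FKBP4 (0.57). Without the DMSO array at 8 h, where more of all genes passed, 4 were higher and 2 lower. Glycolysis genes divided, with ALDOA (-1.04), PKM (-0.87) and GPI (-0.63) lower and PFKM (0.52) and LDHB (0.40) higher. Of the sterol synthesis genes CYP51A1 was higher by 0.77, and LSS (-0.67), DHCR7 (-0.62) and MVK (-0.47) were lower.

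PQR309 was higher than duvelisib in GPSM3, a G protein regulator (0.98), ALDOA (0.82), MIB2 (0.82), TBC1D10C (0.80) and DRAP1 (0.79), and lower in EXOSC8 (-1.07), CCT6A, a chaperonin subunit (-1.0), CYRIB (-0.98), ZNF679 (-0.97) and BZW1 (-0.96). Against ibrutinib, PQR309 was higher in FCGBP (1.31), LINC00908 (1.15), CD69, a marker of lymphocyte activation (1.10), RGS20 (0.80) and ARHGEF3 (0.80). It was lower than ibrutinib in EI24 (-0.98), CCT6A (-0.84), ZNF679 (-0.84), CYRIB (-0.83) and PTGES3, a cochaperone of HSP90 (-0.81). Against idelalisib, PQR309 was higher in SUN2 (0.99), SPSB3 (0.88), LINC00908 (0.87), TNS3 (0.87) and GJB2 (0.82), and lower in INO80E (-0.81), WDR62 (-0.75), DNAJB1 (-0.69), BORCS8-MEF2B (-0.54) and OGDH (-0.54). Of 24 heat-shock genes, 4 were lower and none higher with PQR309 than with duvelisib, 2 and none than with ibrutinib, and 1 and none than with idelalisib. Of all genes 1.31%, 0.129% and 0.0484% were lower with PQR309 in the same order.

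Expression in SUDHL2 also differed between the times, taken over DMSO and the 4 inhibitors together. Time in culture and time under an inhibitor are not separated here. Between 12 h and 4 h, with treatment as a block, 873 genes were higher (7.05%) and 596 lower (4.81%) at 12 h, together 11.9% of 12391 genes. Leaving out the DMSO array at 8 h gave 1497 higher and 1101 lower. SPP1, the secreted protein osteopontin, had log2 intensities of 6.93 to 7.46 at 12 h over the 5 treatments, against 8.64 to 8.76 at 4 h, and fell by 1.59 ± 0.14 (SE, adjusted p = 1.14e-04). CD69 fell by 1.01, GPR18 by 1.07, and TNFRSF17, the plasma cell receptor BCMA, by 1.02. BCL3 rose by 1.10 ± 0.07 (SE, adjusted p = 6.36e-06), SAPCD2 by 1.21, ZYX by 1.18 and FASN, the fatty acid synthase, by 1.06. Ribosome biogenesis genes were higher at 12 h in 18 of 41 cases and lower in 1, with a median of 0.26, RRS1 among them at 0.85. Genes of the G1 to S transition fell in 14 of 37 cases and rose in none, with a median of -0.25, among them RRM2 (-0.68) and PCNA (-0.65). Sterol synthesis genes fell in 5 of 19 cases (HMGCS1 by 0.83 and INSIG1 by 0.82). STAT3 targets rose in 6 of 18 and none fell. When the DMSO array at 8 h was left out, 23 ribosome biogenesis genes and 9 STAT3 targets were higher at 12 h, and 18 genes of the G1 to S transition and 6 of sterol synthesis were lower.

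The remaining question was whether SUDHL2 responded differently from RIVA, TMD8 and U2932. The 60 raw arrays of the 4 lines were fitted together with the line and time as a block, and the effect of an inhibitor in SUDHL2 minus the mean effect in the other 3 lines was tested as an interaction. With PQR309 alone, 4 genes passed in SUDHL2 (0.0318%), against 947 in RIVA (7.54%), 3381 in TMD8 (26.9%) and 1188 in U2932 (9.46%). In the normalized table these were 0 in SUDHL2, against 999 in RIVA (8.05%), 1552 in TMD8 (12.5%) and 1636 in U2932 (13.2%). The count was lowest in SUDHL2 in both tables. The 4 genes were KLHL24 (0.75) and CYB5D2 (0.63), which rose (0.0159%), and IFRD1 (-0.68) and RGS20 (-0.49), which fell (0.0159%), and without the SUDHL2 DMSO array at 8 h RGS20 (-0.60) was the 1 gene that passed. With idelalisib the fit of 4 lines gave 1966 genes in SUDHL2 (15.7%), against 918 in RIVA (7.31%), 1822 in TMD8 (14.5%) and 20 in U2932 (0.159%). With duvelisib the counts were 727 in SUDHL2 (5.79%), against 986 in RIVA (7.85%), 1495 in TMD8 (11.9%) and 57 in U2932 (0.454%). With ibrutinib they were 506 in SUDHL2 (4.03%), against 730 in RIVA (5.81%), 2168 in TMD8 (17.3%) and 289 in U2932 (2.30%). This fit takes 1 spread a gene over the 4 lines, so its p-values in SUDHL2 do not measure the spread in SUDHL2 alone. The fit of SUDHL2 alone gave 301 genes with idelalisib, 1 with duvelisib and 3 with ibrutinib. At 8 h the SD of the log2 difference with idelalisib was 0.652 in SUDHL2, against 0.281 in RIVA, 0.319 in TMD8 and 0.235 in U2932. Without the SUDHL2 DMSO array at 8 h the counts in SUDHL2 in the fit of 4 lines were 18 with idelalisib, 1 with duvelisib and 7 with ibrutinib. With all arrays the count in SUDHL2 was below those of the other 3 lines with PQR309 and not with the other inhibitors. Without that array it was the lowest with all 4, the next being U2932 with idelalisib (32), duvelisib (73) and ibrutinib (402), and RIVA with PQR309 (1090). Only SUDHL2 lost an array there, and a count depends on the number of arrays, so this order compares lines at unequal precision.

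The interaction with PQR309 passed for 52 genes higher (0.414%) and 41 lower (0.326%) in SUDHL2 relative to the other lines, together 0.741% of 12559, and for 47 genes (0.379% of 12415) in the normalized table. Of these, 24 passed in both tables with the same sign, 25.8% of the raw and 51.1% of the normalized calls. Whether the arrays of RIVA, TMD8 and U2932 differ between the tables was not checked. Passing in both tables is therefore no independent repeat of the interaction. Without the SUDHL2 DMSO array at 8 h, 47 passed in the raw table, 36 of them among the 93. Leaving out the 4 h, 8 h or 12 h arrays of the 4 lines gave 86, 8 and 2 genes. TNF, the inflammatory cytokine, had the largest interaction on the higher side. In SUDHL2 its log2 intensity was 8.74, 8.67 and 8.24 at 4, 8 and 12 h with PQR309, against 8.90, 9.37 and 8.74 with DMSO, and the normalized table held 8.07, 8.73 and 7.85 with PQR309 against 8.17, 8.68 and 7.97 with DMSO. In the raw table the highest PQR309 array and the lowest DMSO array met at 8.74, and in the normalized table the groups overlapped. The PQR309 effect on TNF was -0.44 in SUDHL2 (adjusted p = 0.71), against -1.17 in RIVA, -2.89 in TMD8 and -2.12 in U2932, each of which passed. In the normalized table the effect was -0.06 in SUDHL2, against -1.04, -2.59 and -1.91 in RIVA, TMD8 and U2932. The interaction was 1.62 ± 0.35 (SE, adjusted p = 0.0142) in the raw and 1.79 ± 0.20 (SE, adjusted p = 0.00132) in the normalized table, and 1.85 (adjusted p = 0.0144) without the dim array.

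LTA, which codes for lymphotoxin alpha, had 9.26, 10.28 and 9.70 with PQR309 in SUDHL2, against 9.23, 10.29 and 9.83 with DMSO. At no time did the pair differ by more than 0.13. The effect on LTA was -0.03 in SUDHL2, against -0.53 in RIVA, -2.57 in TMD8 and -1.5 in U2932, and the fall passed in TMD8 and U2932. The interaction for LTA was 1.5 (adjusted p = 0.0019), and 1.17 (adjusted p = 0.00258) in the normalized table. MYC, the growth regulator, had 10.38, 11.51 and 11.26 with PQR309 in SUDHL2 against 10.49, 10.97 and 10.89 with DMSO, an effect of 0.27 (adjusted p = 0.768), against -0.32 in RIVA (adjusted p = 0.49), -1.02 in TMD8 and -1.23 in U2932, and the fall passed in TMD8 and U2932. The interaction for MYC was 1.12 in the raw and 1.06 in the normalized table. NFKBIE, an inhibitor of NF-kB that is itself a target, fell in RIVA (-1.24), TMD8 (-1.07) and U2932 (-1.64) with PQR309, and the value in SUDHL2 was -0.33 (adjusted p = 0.691), with an interaction of 0.99 and 0.96 in the raw and the normalized table. Further genes with a higher effect in SUDHL2 in both tables were CD83 (1.18 and 1.27), PLEK (1.12 and 1.0), DUSP2, a phosphatase of ERK (1.23 and 0.86), SGPP2 (1.06 and 0.70), PNP, an enzyme of purine salvage (0.75 and 0.64), and HSPA8, a constitutive chaperone (0.58 and 0.77). CCL3L3 (1.49 and 0.92) and CCL4L1 (1.14 and 1.14) also passed in both, but these chemokine genes have near-identical copies and the copy measured is uncertain. Of the 24 genes that passed in both tables, 15 still passed without the SUDHL2 DMSO array at 8 h, and MYC (0.93, adjusted p = 0.16), CD83 (0.84, adjusted p = 0.253), DUSP2 (1.10, adjusted p = 0.0731) and HSPA8 (0.55, adjusted p = 0.0981) were among those that did not.

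On the lower side, HBP1, a repressor of the cell cycle counted among FOXO targets, had log2 intensities of 7.39, 7.54 and 7.11 at 4, 8 and 12 h with PQR309 in SUDHL2, against 6.96, 7.91 and 6.90 with DMSO. The groups overlapped. The effect on HBP1 was 0.10 in SUDHL2 (adjusted p = 0.902), against 0.88 in RIVA, 1.27 in TMD8 and 0.91 in U2932, all of which passed, and the interaction was -0.92 (adjusted p = 0.00285) in the raw and -0.66 in the normalized table. FBXO32, a ubiquitin ligase and FOXO target that lay under the detection level in SUDHL2, differed by 0.08 in SUDHL2, against 0.80 in RIVA, 1.13 in TMD8 and 0.54 in U2932 (interaction -0.75 and -0.46 in the raw and the normalized table). TSC22D3, the glucocorticoid-induced leucine zipper, differed by -0.16 in SUDHL2, against 1.01, 1.29 and 0.66 in RIVA, TMD8 and U2932, with an interaction of -1.15 (adjusted p = 5.29e-05) and -0.66. GADD45A (-0.80 and -0.51), RBM38 (-1.02 and -0.74) and YPEL1 (-0.82 and -0.44) passed in both tables too. Without the SUDHL2 DMSO array at 8 h, FBXO32 (-0.74), TSC22D3 (-0.92) and RBM38 (-1.07) passed, whereas HBP1 (-0.60, adjusted p = 0.0511), GADD45A (-0.68, adjusted p = 0.101) and YPEL1 (-0.52, adjusted p = 0.163) did not.

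Some of these genes lay under the detection level of 6.28 in SUDHL2. CXCR4, the chemokine receptor, averaged 6.04 ± 0.05 in SUDHL2 with DMSO, against 10.8 ± 0.2 in RIVA, 9.26 ± 0.24 in TMD8 and 9.36 ± 0.11 in U2932 (SD, n = 3 each), and its interaction was -1.35 and -1.12 in the raw and the normalized table. The same was seen for FBXO32, and for HRK, a BCL2-family member, at 5.95 in SUDHL2 with DMSO, and for MME and GCSAM. In all, 4 of the 52 higher and 12 of the 41 lower calls lay under that level in SUDHL2. TNF, LTA, MYC, NFKBIE, CD83 and HBP1 lay above it in SUDHL2.

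By list, NF-kB targets held 8 genes with a higher PQR309 effect in SUDHL2 and none lower, of 36 measured (0.414% and 0.326% of all genes), with a median of 0.37 against -0.004 over all genes, and 6 of 37 with a median of 0.20 in the normalized table. The TNF, lymphotoxin and chemokine list held 4 of 12 (median 0.49), and 3 of 14 (median 0.39) in the normalized table. FOXO targets held 5 lower and none higher of 32, namely CXCR4, FBXO32, GADD45A, HBP1 and PIK3IP1 (median -0.20), of which CXCR4, FBXO32 (6.10 with DMSO) and PIK3IP1 (6.24 with DMSO) lay under the detection level in SUDHL2, and again 5 of 32 in the normalized table (median -0.18). Ribosome biogenesis held 2 of 41, NOP16 and PAK1IP1, with a median of 0.35, and 2 with 0.38 in the normalized table. In the lines taken one by one, genes of ribosome biogenesis fell with PQR309 in 0 of 41 cases in SUDHL2, against 20 in RIVA, 35 in TMD8 and 23 in U2932, with medians of -0.22 in SUDHL2 against -0.47, -0.72 and -0.54 in the same order. Of all genes 0.0159% fell in SUDHL2, against 4.21% in RIVA, 11.6% in TMD8 and 4.59% in U2932, and 0.0159% rose in SUDHL2, against 3.33%, 15.4% and 4.87%. FOXO targets rose in 1 of 32 cases in SUDHL2, against 13, 14 and 13, and NF-kB targets fell in 0 of 36, against 9, 17 and 9. Of 25 heat-shock genes none fell in SUDHL2, against 14, 15 and 12. All these lists were chosen with earlier results of these data known, so their counts are no independent evidence. The list of genes that led with PQR309 over 8 lines was itself taken from these data. It held 5 higher and 2 lower interactions of 22. Without the SUDHL2 DMSO array at 8 h the interaction passed for 6 NF-kB targets (median 0.29), 3 genes of the TNF list (0.37), 2 FOXO targets on the lower side (-0.18) and 1 gene of ribosome biogenesis (0.29). With median scaling the FOXO median turned to 0.026, where the median of all genes was 0.122.

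**Figure D5:**
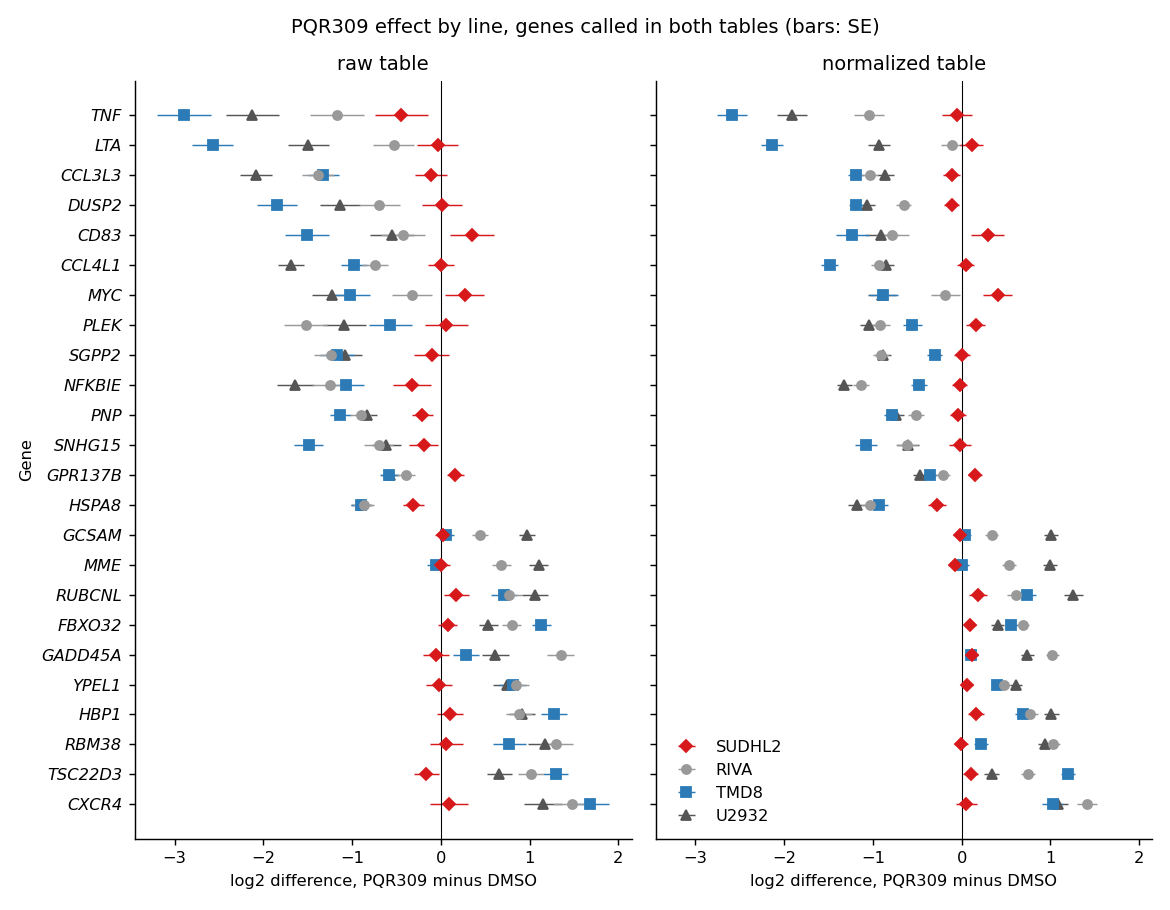
Log2 difference between PQR309 and DMSO (horizontal axis; bars, SE) in SUDHL2, RIVA, TMD8 and U2932 for the 24 genes whose PQR309 effect in SUDHL2 differed from the mean of the other lines in both tables, raw table (left) and normalized table (right). The lines are told apart by colour. In the raw table TNF is at -0.44 in SUDHL2, against -2.89 in TMD8, and HBP1 at 0.10 in SUDHL2, against 1.27 in TMD8.

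With the other 3 inhibitors the effect in SUDHL2 differed from the mean of RIVA, TMD8 and U2932 in more genes. The interaction passed with idelalisib for 1015 genes (8.08%), of which 388 were higher (3.09%) and 627 lower (4.99%) in SUDHL2 relative to the other lines. With duvelisib it passed for 1777 genes (14.1%), 844 higher (6.72%) and 933 lower (7.43%), and with ibrutinib for 717 (5.71%), 375 higher (2.99%) and 342 lower (2.72%). Without the SUDHL2 DMSO array at 8 h these counts were 15, 312 and 44. Median scaling moved the median of all genes in the interaction to 0.542 with duvelisib and 0.512 with ibrutinib, and 98.1% and 99% of the calls were then higher.

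NF-kB targets were again mostly on the higher side. They held 9 higher and 0 lower interactions of 36 with idelalisib (median 0.39), 12 and 1 with duvelisib (0.25) and 8 and 1 with ibrutinib (0.34), and without the dim array 2, 4 and 3 higher and none lower. IRF4, the factor that drives the activated B-cell programme, had log2 intensities of 7.93, 10.75 and 9.0 at 4, 8 and 12 h with ibrutinib and 8.02, 10.57 and 8.71 with duvelisib in SUDHL2, against 7.83, 9.49 and 8.52 with DMSO. Both inhibitors were above DMSO at each time, with the widest gap at 8 h, where the DMSO array was dim. The ibrutinib effect on IRF4 was 0.62 in SUDHL2, against -0.60 in RIVA, -1.06 in TMD8 and -0.62 in U2932, and it passed in TMD8. The interaction for IRF4 was 1.38 ± 0.22 (SE, adjusted p = 4.93e-04) with ibrutinib and 1.36 ± 0.22 (SE, adjusted p = 3.55e-04) with duvelisib, and 1.13 (adjusted p = 0.0307) and 1.11 (adjusted p = 0.0123) without the dim array. The ibrutinib effect on LTA was -0.35 in SUDHL2, against -0.91 in RIVA, -2.47 in TMD8 and -1.81 in U2932, and its interaction was 1.38 (adjusted p = 0.00302), or 1.49 (adjusted p = 0.027) without the dim array.

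FOXO targets, ribosome biogenesis and heat-shock genes lay mostly on the same sides as with PQR309, whereas some other lists did not. Of all genes 3.09%, 6.72% and 2.99% were higher and 4.99%, 7.43% and 2.72% lower with idelalisib, duvelisib and ibrutinib. FOXO targets held 7 lower and 1 higher interactions of 32 with idelalisib (median -0.23), 6 and 0 with duvelisib (-0.17) and 4 and 0 with ibrutinib (-0.14), and without the dim array 0, 4 and 2 lower. Ribosome biogenesis held 8 higher of 41 with idelalisib (median 0.25), 11 with duvelisib (0.33) and 8 with ibrutinib (0.38), none lower, and without that array 0, 2 and 0. Heat-shock genes held 4, 8 and 4 higher of 25, and 0, 5 and 1 without it. Among them the interaction for HSPA4 was 1.11 ± 0.21 (SE, adjusted p = 0.00116) with duvelisib and 0.97 (adjusted p = 0.00591) with ibrutinib, and both passed without the dim array. The comparisons of the 4 inhibitors share the DMSO arrays, so their values stand side by side only.

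RGS20 had an effect in SUDHL2 beyond that in the other lines with each of the 4 inhibitors in the raw table. With ibrutinib it differed from DMSO by -1.33 in SUDHL2 (adjusted p = 3.15e-13), against -0.10 in RIVA, -0.25 in TMD8 and -0.13 in U2932, none of which passed. The interaction was -1.16 ± 0.10 (SE, adjusted p = 1.76e-09) with ibrutinib, -0.76 (adjusted p = 7.13e-05) with idelalisib, -0.57 (adjusted p = 0.00285) with PQR309 and -0.48 (adjusted p = 0.00399) with duvelisib. In the normalized table it was -0.39 (adjusted p = 0.0609) with PQR309 and did not pass. In RIVA and U2932, RGS20 averaged 5.98 and 6.01 with DMSO, under the level of 6.28, and in TMD8 6.39, against 8.43 ± 0.34 (SD, n = 3) in SUDHL2, which leaves little room for a lower value in those lines. Without the SUDHL2 DMSO array at 8 h, RGS20 was called in SUDHL2 with all 4 inhibitors, at -1.44 with ibrutinib, -0.86 with idelalisib, -0.60 with PQR309 and -0.58 with duvelisib. TPRG1 also fell in TMD8 with ibrutinib, at -0.76, and its interaction was -0.74 (adjusted p = 4.50e-04).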

How the data were processed

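The authors deposited a raw table of probe intensity on a linear scale and a normalized table of log2 values, together with detection p-values in 3 columns; GenomeStudio is named in the submitters' processing notes, and how the deposited log2 values were normalized is not given in the sources used here. Of 47231 probes 30113 carried 1 gene symbol. The 15 SUDHL2 arrays of the raw table were background-corrected (normexp, offset 50), put on log2 and quantile-normalized together in R 4.3.3 with limma 3.58.1 (tables read with version 1.17.8 of data.table). The brighter 50% of probes by mean were kept, then the brightest probe of a gene. limma (lmFit, eBayes) was fitted with treatment and time as a block, and the 60 arrays of 4 lines with the line and time as a block. P-values were adjusted over all genes by Benjamini-Hochberg, with a threshold of 0.05. The deposited log2 values were fitted as given. The number of arrays limits the precision. The fits were also run on simulated data. These held independent normal values with the same spread on every array and no dim array, so they do not speak to the effect of such an array.

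Replicate numbers follow the times, which are shared by the treatments, so the pairing comes from the labels and the time block is the main design. Genes named are the largest differences past the test with 1 sign at all 3 times (10 a direction for an inhibitor against DMSO, 5 for other comparisons), those nearest to it where fewer passed, list members, drug targets and markers. The interaction genes that passed in both tables, and the genes given as of like size in both tables, were named after their values were seen. The members and the 31 gene lists were chosen with earlier results of these data known. Settings varied were the background correction, scaling, filter, probe choice, samples in the fit, block, table and arrays left out.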

Additional observations from a re-analysis of the deposited data

Results flagged for a closer look

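The effect of an inhibitor in SUDHL2 was tested against its mean effect in RIVA, TMD8 and U2932 with an interaction term in limma. The difference itself passed an adjusted p of 0.05 for 93 genes with PQR309, 1015 with idelalisib, 1777 with duvelisib and 717 with ibrutinib. Without the dim SUDHL2 DMSO array at 8 h these counts were 47, 15, 312 and 44. Groups of 3 arrays were not tested for single outlying arrays.

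With PQR309 the effect in SUDHL2 was higher by 1.62 on the log2 scale for TNF, 1.5 for LTA, 1.49 for CCL3L3, a chemokine, 1.32 for MIR155HG, the host gene of miR-155, and 1.23 for DUSP2. It was lower by a difference of -1.37 for HRK, -1.35 for CXCR4, -1.15 for TSC22D3, -1.15 for TNFRSF21 and -1.06 for MAP6D1. Without the dim array MIR155HG (adjusted p = 0.0511), DUSP2 (adjusted p = 0.0731) and MAP6D1 (adjusted p = 0.16) no longer passed, and the other 7 did.

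With idelalisib the differences were 1.36 for CCL3L3, 1.34 for LOC644936, 1.28 for TNF, 1.26 for SPIB, a B-cell transcription factor, and 1.22 for SOCS3, a brake on cytokine signalling, and on the lower side -1.43 for MAP6D1, -1.08 for YPEL1, -1.07 for FGD3, -1.03 for CXCR4 and -1.03 for ABCB9. Only CCL3L3 (1.02), MAP6D1 (-1.32) and YPEL1 (-0.79) of these 10 passed without the dim array.

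With duvelisib they were 1.55 for BZW1, 1.37 for MIR155HG, 1.36 for IRF4, a regulator of the activated class, 1.30 for CCL3L3 and 1.27 for BCL2A1, an inhibitor of cell death, and -1.37 for DFFA, -1.19 for RBM38, -1.15 for HRK, -1.13 for YPEL1 and -1.13 for WBP2. Of these 10, DFFA (adjusted p = 0.0502) and WBP2 (adjusted p = 0.0777) did not pass without the dim array. IRF4 differed from DMSO by 0.49 with duvelisib in SUDHL2, against -0.98 in RIVA, -1.18 in TMD8 and -0.45 in U2932.

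With ibrutinib they were 1.45 for CCL3L3, 1.38 for LTA, 1.38 for IRF4, 1.32 for EGR1, an early response factor, and 1.28 for CD83, and -1.73 for RNA18SN5 and -1.30 for RNA28SN5, both ribosomal RNA, -1.22 for SNORD13, -1.18 for DFFA and -1.16 for RGS20. Without the dim array CCL3L3, LTA, IRF4 and RGS20 passed, and the other 6 had adjusted p-values between 0.0848 and 0.355.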

How the results depend on the processing

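Counts below are genes past an adjusted p of 0.05. PQR309 minus DMSO gave 0 under each of the 24 alternatives run on SUDHL2 alone (both tables), and 4 in the fit of 4 lines. Of the other counts, 125 moved by over 1.5 times and 76 did not. Named genes that had passed kept their call in 1090 cases, lost it in 543 and reversed in 6; those that had not passed stayed so in 531, passed in 60 and reversed in 5. Leaving out the times one by one, or for time the treatments, gave 0 to 147 genes for idelalisib, 0 to 3 for duvelisib and 0 to 4 for ibrutinib against DMSO, and 0 to 0 for PQR309 in both tables. The pairs gave 0 to 140 (PQR309 minus idelalisib), 0 to 1203 (PQR309 minus duvelisib), 0 to 341 (PQR309 minus ibrutinib), 0 to 993 (duvelisib minus idelalisib), 0 to 36 (ibrutinib minus idelalisib) and 0 to 1 (ibrutinib minus duvelisib), time gave 554 to 2292, and the interactions 2 to 86 with PQR309, 1 to 1218 with idelalisib, 79 to 1076 with duvelisib and 10 to 416 with ibrutinib. With no replicate block, that is without the pairing by time, idelalisib had 0, duvelisib 0 and ibrutinib 1, the pairs in the order above 0, 4, 0 and 88 and the last 0, time 840, and the interactions 9, 20, 191 and 14. An offset of 16 gave 118 for idelalisib, 0 for duvelisib, and 0, 145 and 12 for the first 3 pairs. Median scaling gave 0 for idelalisib, duvelisib, ibrutinib and every pair, 2 for time, and 3, 2, 5385 and 3993 for the interactions, of which 98.1% and 99% were higher for duvelisib and ibrutinib, against 47.5% and 52.3% with quantiles. With only the groups compared in the fit, idelalisib, duvelisib and ibrutinib had 0, and the last 5 pairs 830, 464, 2512, 301 and 449, with 0 for the first. Without the DMSO array at 8 h (chosen after seeing the data) idelalisib had 47, duvelisib 0, the pairs 1142, 1514, 844, 1548, 52 and 2, time 2598, and the interactions 47, 15, 312 and 44. Without the PQR309 array at 8 h as well, idelalisib had 369, duvelisib had 109, ibrutinib 29, the pairs 331, 1888, 701, 2591, 626 and 147, and time 3635. Normalizing 60 arrays together gave 0 for duvelisib, 2 for PQR309 minus idelalisib and 15 for PQR309 minus ibrutinib. PQR309 minus ibrutinib had 77 with the mean of probes, 71 with no background correction and 77 with no filter; PQR309 minus duvelisib had 495 with the mean of probes, and ibrutinib minus duvelisib 0 with no background correction. The normalized table gave 2613, 670 and 128 for the last 3 pairs and 47 for the PQR309 interaction. The brighter 30% of probes gave interactions of 282 for idelalisib, 1105 for duvelisib and 418 for ibrutinib. Set against RIVA alone the interactions were 161, 169, 1085 and 47, against TMD8 alone 672, 1701 and 1619 for PQR309, idelalisib and ibrutinib, and against U2932 alone 34, 104 and 137 for idelalisib, duvelisib and ibrutinib. The values that reversed under median scaling were, with duvelisib minus DMSO, IRAG2 0.21, LOC606724 0.42, FAM174C 0.32, IRF3 0.30 and VAC14 0.013, with ibrutinib minus DMSO, IRAG2 0.063 and CYTH1 0.21, with PQR309 minus duvelisib, MIB2 -0.013 and DRAP1 -0.053, and in the duvelisib interaction WBP2 0.032. EGR1 in the ibrutinib interaction was -0.47 against RIVA alone. The cause was not tested. limma's array weights came with a warning and gave the DMSO array at 12 h a weight of 2.2e-06, so no fit used them.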
